A study of Triticum aestivum with 6 samples.

Results

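The flavonoid route from chalcone to anthocyanidin was followed through 85 genes of bread wheat (Triticum aestivum), out of 107891 genes in the deposited table. They are the genes whose KEGG orthology (KO) assignment includes chalcone isomerase (CHI, 5 genes), flavanone 3-hydroxylase (F3H, 14), flavonoid 3'-hydroxylase (F3'H, 18), flavonoid 3',5'-hydroxylase (F3'5'H, 19), dihydroflavonol 4-reductase (DFR, 15) or anthocyanidin synthase (ANS, 14). The rule uses the KO assignment alone, although it was set with earlier results of these data known. RNA was sequenced from grain of a white-grained and of a purple-grained wheat, 3 libraries each, at 30 days after flowering. All plants grew in pots in the same kind of climate chamber, and no treatment is recorded. The labels name neither the cultivars nor the genes for grain colour, so grain colour cannot be told apart from any other difference between the 2 wheats. They also do not say whether libraries came from separate plants, so p-values cover the spread among the libraries alone, which may be technical. The tissue label is grain, while the extraction protocol mentions stems and buds.

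Flavonoids are built from chalcones. CHI closes a chalcone into a flavanone, F3H turns the flavanone into a dihydroflavonol, and F3'H and F3'5'H add hydroxyl groups to the ring that later sets the hue of the pigment. DFR reduces dihydroflavonols to leucoanthocyanidins, and ANS oxidises these to the coloured anthocyanidins, which glycosyltransferases then make stable. In purple wheat the pigment lies mainly in the pericarp, the maternal outer coat of the grain. Bread wheat is hexaploid and usually carries a copy of each gene, a homoeologue, on its A, B and D subgenomes. F3H and ANS belong to a large family of oxygenases, F3'H and F3'5'H to the cytochromes P450, and DFR to a family of reductases, so a KO assignment alone does not establish the reaction a copy performs.

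Read totals ran from 78660932 to 88002127 counts in white and from 80898310 to 102868886 in purple libraries. Gliadin and glutenin genes, markers of the starchy endosperm (103 of 108 with counts), held 10.5% to 19.4% of the summed expression in white grain, and 8.23%, 9.0% and 21.3% in purple replicates 1 to 3. Embryo and aleurone markers (21 of 23 with counts) held 0.0479% to 0.0685% in white libraries and, in purple replicates 1 to 3, 0.235%, 0.435% and 0.0872%. Markers of green tissue (67 of 74 with counts) held 0.0307% to 0.0364% in white libraries, against 0.00544%, 0.00370% and 0.0262% in purple replicates 1 to 3. Grain markers were thus present in all 6 libraries. Purple replicate 3 lay nearer to the white mean than the other 2 purple libraries did in all 3 lists, and outside the white range in each. Fewer cells of a type and less RNA per cell cannot be told apart in such bulk samples.

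No gene of the 6 enzymes passed the test between the grain types. Of the 85 genes, 20 had no count in any library, 65 had counts, and 30 reached the mean of 0.5 FPKM (fragments per kilobase of transcript, scaled by the authors to library size) needed for testing. The 35 genes with counts below that mean held between 4 and 527 counts over the 6 libraries. Since the mean was taken over both grain types, a gene could reach it through 1 grain type alone. A gene was called where the adjusted p of edgeR's quasi-likelihood test was under 0.05 and the log2 difference 1 or more in size. By this rule 0 of 30 were called higher and 0 lower in purple grain. Among all 48492 tested genes, 2.87% were called higher and 2.32% lower. At an unadjusted edgeR p under 0.05, purple grain was higher for 4 of the 30 and lower for 3, against 14.2% and 12.6% of all tested genes. DESeq2 called 4 of the 30 higher and 1 lower, where it called 9.41% and 6.2% of all tested genes. These shares lay near the background of the whole table. Without purple replicate 3, edgeR called 2 of 29 tested members higher and 2 lower, against 5.22% and 5.02% of all genes. The same counts, 2 and 2, came without that library and without the minimum, against 3.47% and 3.29% of all genes. limma called 0 members in either direction on log2(FPKM + 1), where it called 3.17% and 3.47% of all genes, and also 0 on log2(FPKM + 0.1), where it called 3.82% and 4.14%.

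The median log2 difference of the 30 tested genes was -0.06, with 14 above 0, against 0.02 for all tested genes, of which 51% lay above 0 and 49% below. For 8 of the 65 genes with counts every purple library exceeded every white one, and for 7 every purple library was lower. The shares among all genes with a count were 12.8% and 14.7%. For the 30 tested genes these counts were 3 and 4, against 13.3% and 19.9% of all tested genes. Among the 34 genes whose description names the enzyme of their KO, 22 had counts, 5 lay above in purple grain and 1 below. Among the 51 genes described otherwise, 43 had counts, 3 lay above and 6 below. The difference between these 2 groups of genes was not tested.

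**Figure D1:**
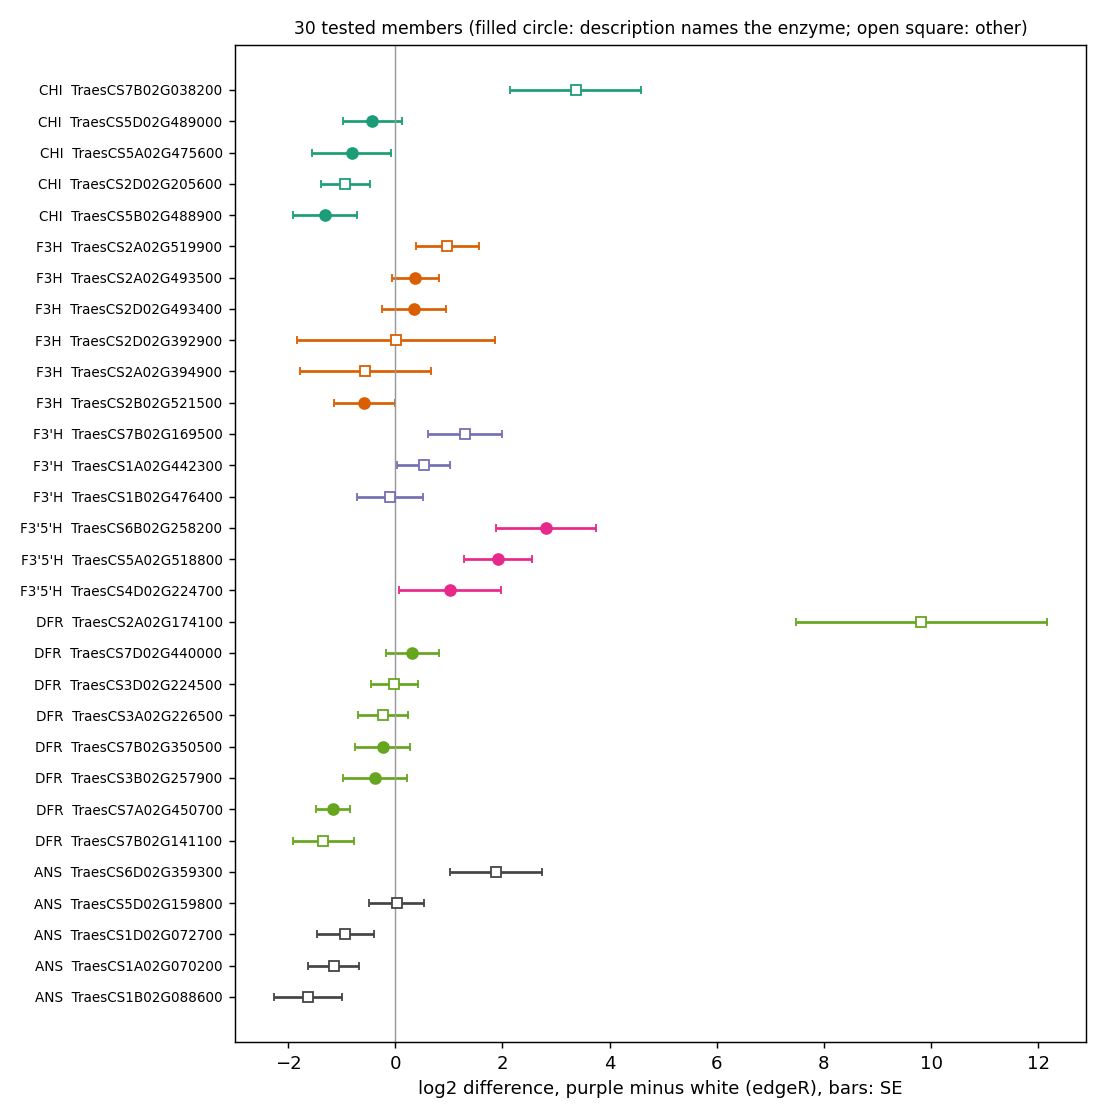
Log2 difference in expression, purple minus white grain, with its SE from edgeR, for the tested genes of each enzyme (30 genes, 3 libraries per grain type). No gene passed the adjusted p; TraesCS2A02G174100 had 0 counts in white grain, so its fitted value is no bound on the fold.

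Summed over its genes, CHI held 20.7 ± 4.50 FPKM in white against 11.4 ± 6.49 FPKM in purple grain (SD, n = 3, also for later errors unless SE is stated). The F3H sum was 11.9 ± 1.46 FPKM in white and 11.6 ± 7.19 in purple grain. F3'H reached 5.27 ± 2.16 and 6.24 ± 2.83 FPKM, and F3'5'H reached 3.09 ± 1.70 and 7.42 ± 4.14 FPKM. For DFR the sums were 21.9 ± 8.04 and 17.9 ± 2.34 FPKM, and for ANS 33.3 ± 5.16 and 25.7 ± 19.1 FPKM. The log2 ratio of the ANS sums, purple to white, was -0.37, but -1.14 without purple replicate 1 and 0.015 without purple replicate 2. That of F3'H was 0.24, and -0.15 without purple replicate 1, and that of DFR was -0.29, and 0.04 without white replicate 2. None of these sums was tested, and the ranges of the 2 grain types can be read library by library in the plot of summed expression. Expression was low throughout, since only 5 of the 85 genes had a mean of at least 5 FPKM and the highest mean was 9.67 FPKM.

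**Figure D2:**
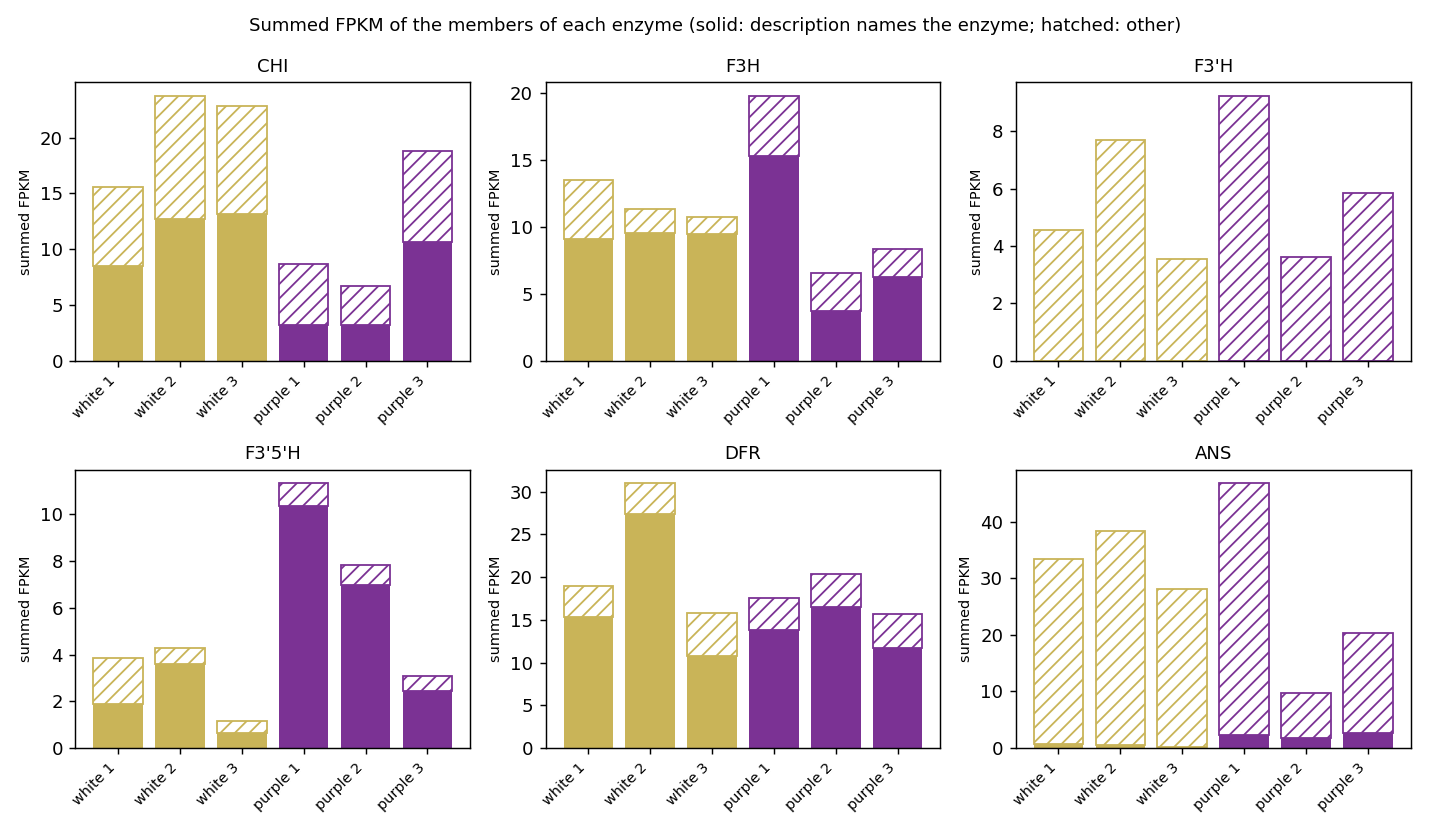
Summed FPKM of all genes of each enzyme in each of the 6 libraries. Solid parts are genes whose description names the enzyme, and hatched parts are the others. The F3H sums of white grain, 11.9 ± 1.46 FPKM (mean and SD, n = 3), lie within the wider spread of purple grain, 11.6 ± 7.19 FPKM.

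Over all 3 purple libraries, 1 of the 5 CHI genes lay above all white libraries and 0 lay below. The shares among all genes with a count were 12.8% and 14.7%. In the other 4 genes, purple replicates 1 and 2 lay below all white libraries and purple replicate 3 lay within the white range. This split was described after the values were seen, and its share among all genes was not counted. The 3 genes described as chalcone flavanone isomerase lie on chromosomes 5A, 5B and 5D. Together they held 8.46, 12.7 and 13.2 FPKM in the white libraries and 3.23, 3.23 and 10.7 FPKM in the purple ones. Only the third purple library fell within the white range. In that library gliadin and glutenin genes held 21.3% and green tissue markers 0.0262% of the summed expression, against at most 9.0% and 0.00544% in the other 2 purple libraries. The part of those tissues in the CHI values was not tested.

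TraesCS5B02G488900 (5B, 658890320 to 658891677) was the most expressed of the 3 copies. It had 3.13, 5.81 and 7.52 FPKM in white against 1.26, 1.01 and 3.79 FPKM in purple grain. The groups overlapped through purple replicate 3, and the log2 difference of -1.31 ± 0.60 (SE) did not pass (edgeR adjusted p = 0.215). Without that library, the one that made the groups overlap, it was -2.14 and passed (edgeR adjusted p = 0.0408). With any other single library left out it did not pass (edgeR adjusted p = 0.197 to 0.470). TraesCS5A02G475600 (5A, 650626732 to 650627980) had 3.36, 2.20 and 1.73 FPKM in white and 0.348, 0.970 and 2.57 in purple grain (log2 difference -0.81 ± 0.74 (SE), edgeR adjusted p = 0.517). TraesCS5D02G489000 (5D, 524334560 to 524335791) had 1.96, 4.73 and 3.94 FPKM in white and 1.62, 1.24 and 4.31 in purple grain (edgeR adjusted p = 0.659). For both copies the ranges of the grain types overlapped.

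The CHI gene with the highest mean, TraesCS2D02G205600 (2D, 157143944 to 157148000), is described only as a hypothetical protein. Its values were 7.12, 10.8 and 9.49 FPKM in white and 3.08, 2.49 and 7.61 in purple grain. As for the copies on chromosome 5, only purple replicate 3 lay in the white range. The log2 difference was -0.93 ± 0.45 (SE; edgeR adjusted p = 0.241), and -1.59 without purple replicate 3 (edgeR adjusted p = 0.0236). With any other single library left out it did not pass (edgeR adjusted p = 0.277 to 0.502). No copy of this gene carries the KO on 2A or 2B. The fifth gene, TraesCS7B02G038200 (7B, 37093624 to 37094994), carries the CHI assignment but is described as a chalcone synthase, the enzyme that makes the chalcone. It had 0, 0.230 and 0.172 FPKM in white and 2.34, 0.993 and 0.528 in purple grain. All purple libraries lay above all white ones, and the difference of 3.37 ± 1.22 (SE) on the log2 scale did not pass by edgeR (adjusted p = 0.144) but did by DESeq2 (adjusted p = 0.0299). The median log2 difference of the 5 CHI genes was -0.81, with 1 above 0.

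**Figure D3:**
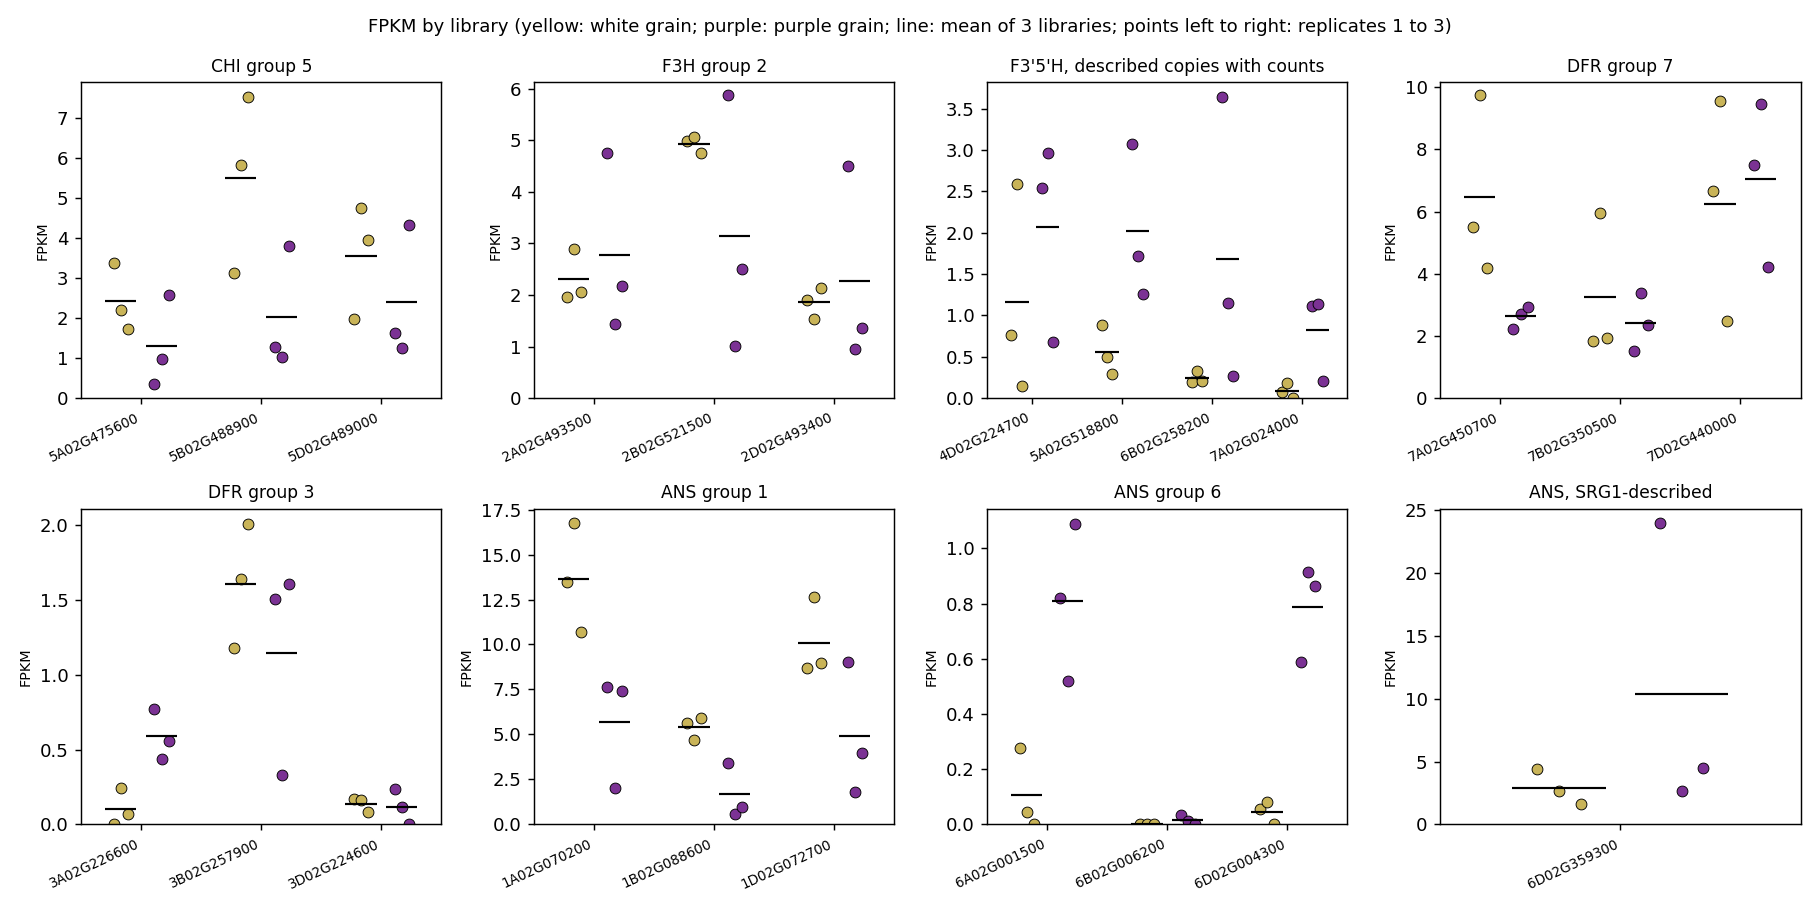
FPKM of single copies in the 3 white and 3 purple libraries, grouped by enzyme and, except for F3'5'H, by chromosome group. The F3'5'H genes shown lie on different chromosome groups. The CHI copy on 5B is lowest in purple replicates 1 and 2 (1.26 and 1.01 FPKM), and the DFR copy on 7A is lower in all purple libraries (2.22 to 2.95 FPKM against 4.20 to 9.75).

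F3H expression came mainly from 3 copies on chromosome group 2 that are described as flavanone 3-hydroxylase, and none of the 6 tested F3H genes had an unadjusted edgeR p under 0.05. The B copy, TraesCS2B02G521500 (2B, 716551445 to 716553847), was the most expressed, with 5.00, 5.06 and 4.76 FPKM in white against 5.88, 1.02 and 2.51 in purple grain. The white libraries agreed closely, and the purple libraries lay on both sides of them (log2 difference -0.57 ± 0.57 (SE), edgeR adjusted p = 0.553). The A copy, TraesCS2A02G493500 (2A, 725911802 to 725914075), had 1.97, 2.89 and 2.06 FPKM in white and 4.75, 1.43 and 2.17 in purple grain (edgeR adjusted p = 0.618). For the D copy, TraesCS2D02G493400 (2D, 590929808 to 590931652), the white values were 1.91, 1.53 and 2.14 FPKM and the purple ones 4.51, 0.956 and 1.36 (edgeR adjusted p = 0.738). All 3 copies were highest in purple replicate 1 and lowest in purple replicate 2, and the sum over F3H moved with purple replicate 1. The log2 ratio of the summed FPKM was -0.04 with all libraries and -0.67 without that replicate.

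Of the other F3H genes, the 3 that were tested are described as predicted proteins. TraesCS2A02G519900 had 1.01, 1.36 and 0.612 FPKM in white and 2.96, 1.81 and 0.641 in purple grain. The third purple library again lay in the white range (log2 difference 0.97 ± 0.59 (SE), edgeR adjusted p = 0.333). A pair in like positions on 2A and 2D varied widely within each grain type. TraesCS2A02G394900 had 1.5, 0.140 and 0.169 FPKM in white and 0.703, 0.475 and 0.0591 in purple grain. TraesCS2D02G392900 had 1.38, 0.0288 and 0.220 FPKM in white and 0.206, 0 and 1.44 in purple grain. In both genes a single white library was far above the other white ones (edgeR adjusted p = 0.802 and 0.997). TraesCS2B02G412900, in the same stretch of the B subgenome, had 38 counts in white replicate 1 and 0 in the other 5 libraries. It is at least 4.99-fold lower in purple grain by a floor of 3 counts per library, a bound that rests on that single white library. The median log2 difference of the 6 tested F3H genes was 0.19, with 4 above 0.

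For the hydroxylases of the flavonoid ring, the KO assignment and the descriptions parted. The 3 genes described as flavonoid 3'-monooxygenase that carry the F3'H assignment lie at the start of the group 6 chromosomes and had no count in any library. The tested F3'H genes are described as predicted proteins. TraesCS1A02G442300 (1A, 590995483 to 590997454) had 0.860, 2.30 and 0.713 FPKM in white and 2.52, 1.32 and 1.19 in purple grain (edgeR adjusted p = 0.528). The counterpart on 1B, TraesCS1B02G476400, had 0.815, 1.14 and 0.402 FPKM in white and 0.576, 0.282 and 1.15 in purple grain (edgeR adjusted p = 0.940). On 1D, TraesCS1D02G450100 had 0.285, 0.670 and 0.581 FPKM in white and 0.158, 0.0497 and 1.00 in purple grain, below the mean needed for testing. The ranges overlapped in all 3 copies.

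TraesCS7B02G169500 (7B, 240330567 to 240332748) had 0.915, 0.896 and 0.502 FPKM in white and 3.83, 0.870 and 0.692 in purple grain. Only purple replicate 1 was above the white range (log2 difference 1.30 ± 0.70 (SE), edgeR adjusted p = 0.280). The median log2 difference of the 3 tested F3'H genes was 0.53, with 2 above 0. A set on the middle of the group 7 chromosomes carries the F3'H assignment but is described as flavonoid 3',5'-hydroxylase, and was chosen for mention after its values were seen. Its A copy, TraesCS7A02G309300, had 0.135, 0.162 and 0.114 FPKM in white and 0.235, 0.299 and 0.270 in purple grain. The D copy, TraesCS7D02G306000, ran the other way, with 0.520, 0.476 and 0.354 FPKM in white against 0.268, 0.222 and 0.226 in purple grain. Neither pair of ranges overlapped, and neither gene reached the mean for testing (edgeR without that minimum, adjusted p = 0.410 and 0.409). The D copy overlaps a neighbouring gene by 669 bases, so part of its reads may be shared.

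Of the 11 F3'5'H genes with counts, 6 had a higher and 5 a lower mean in purple than in white grain. The 5 lower ones and 3 of the higher ones had too low a mean for testing. All 3 tested genes are described as flavonoid 3',5'-hydroxylase, and all 3 log2 differences were above 0 with a median of 1.92. Of these, TraesCS6B02G258200 reached the mean for testing through purple grain alone (means of 0.242 FPKM in white and 1.69 in purple grain). The direction and median of the 3 therefore depend on that minimum. TraesCS5A02G518800 (5A, 680744776 to 680745393) had 0.880, 0.502 and 0.293 FPKM in white and 3.07, 1.72 and 1.26 in purple grain. Every purple library exceeded every white one, by 1.92 ± 0.63 (SE) on the log2 scale (edgeR adjusted p = 0.119, DESeq2 adjusted p = 0.0356). TraesCS6B02G258200 (6B, 463402283 to 463402900) had 0.192, 0.324 and 0.212 FPKM in white and 3.64, 1.15 and 0.271 in purple grain. Purple replicate 3 fell within the white range, and the log2 difference was 2.82 ± 0.93 (SE; edgeR adjusted p = 0.121, DESeq2 adjusted p = 0.0278). Without purple replicate 3 it was 3.33 (edgeR adjusted p = 0.0365). Without purple replicate 2 or any single white library it did not pass (edgeR adjusted p = 0.203 to 0.286).

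Another gene of the same description, TraesCS7A02G024000 (7A, 9492028 to 9492645), was below the mean for testing. It had 4, 10 and 0 counts in white and 76, 73 and 12 in purple grain, all purple libraries above all white ones (edgeR without the minimum, adjusted p = 0.208). These 3 genes on 5A, 6B and 7A each span 618 bases, and whether they share reads was not tested. TraesCS4D02G224700 (4D, 381737240 to 381739181) had 0.757, 2.59 and 0.146 FPKM in white and 2.54, 2.96 and 0.683 in purple grain, with overlapping ranges (edgeR adjusted p = 0.522). Of the 10 F3'5'H genes whose description names the enzyme, the remaining 6 had no count in any library.

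The DFR gene with the smallest adjusted p by edgeR was the A copy of a set of 3 on chromosome group 7, described as dihydroflavonol-4-reductase. TraesCS7A02G450700 (7A, 644132527 to 644134529) had 5.51, 9.75 and 4.20 FPKM in white and 2.22, 2.72 and 2.95 in purple grain. All purple libraries lay below all white ones, by -1.16 ± 0.31 (SE) on the log2 scale. This had the smallest adjusted p of the 30 genes by edgeR, 0.0821, and passed by DESeq2 (adjusted p = 0.0151). Without white replicate 2 the log2 difference was -0.86 (edgeR adjusted p = 0.200), and without purple replicate 2 it was -1.18 (edgeR adjusted p = 0.226). The D copy, TraesCS7D02G440000 (7D, 559458765 to 559460839), had 6.66, 9.58 and 2.48 FPKM in white and 7.51, 9.48 and 4.21 in purple grain (log2 difference 0.32 ± 0.50 (SE), edgeR adjusted p = 0.714). The B copy, TraesCS7B02G350500 (7B, 607642185 to 607644052), had 1.85, 5.95 and 1.94 FPKM in white and 1.52, 3.40 and 2.36 in purple grain (edgeR adjusted p = 0.80). Both overlapped between the grain types, and whether the copies of this set differ in their response was not tested.

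A second set described as dihydroflavonol 4-reductase lies on chromosome group 3. Its B copy, TraesCS3B02G257900 (3B, 415923305 to 415925058), had 1.18, 1.64 and 2.01 FPKM in white and 1.5, 0.331 and 1.60 in purple grain (edgeR adjusted p = 0.715). The A copy, TraesCS3A02G226600, named after its values were seen, had 0, 30 and 10 counts in white and 118, 64 and 67 in purple grain. Each purple library exceeded each white one (edgeR without the minimum, log2 difference 2.64, adjusted p = 0.258). The D copy, TraesCS3D02G224600, also named after its values were seen, had 21, 20 and 12 counts in white and 37, 17 and 0 in purple grain. The A and D copies each overlap, on the opposite strand, a longer gene that carries the same KO number. TraesCS3A02G226500 is described as an auxilin-related protein and shares 432 bases with the A copy. TraesCS3D02G224500, a hypothetical protein, shares 417 bases with the D copy. Since no strand setting is given in the sources used here, reads from the overlaps cannot be assigned to either gene, and the longer genes are uncertain members of the enzyme. Neither passed by edgeR (adjusted p = 0.790 and 0.987), and both were lowest in purple replicates 1 and 2.

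TraesCS2A02G174100 (2A, 132246434 to 132260098) carries the DFR assignment and is described as a predicted protein. It had 0 counts in every white library, against 159, 204 and 3 counts in purple grain. In FPKM these are 1.39, 1.88 and 0.0222, and the purple mean is at least 33.6-fold higher by a floor of 3 counts per library. Purple replicate 3, with 3 counts, stood at that floor itself. The gene missed the threshold by edgeR (adjusted p = 0.0885), and passed by DESeq2 (adjusted p = 4.55e-05) and by edgeR without purple replicate 3 (adjusted p = 0.0209). With any single white library left out it did not pass by edgeR (adjusted p = 0.117 to 0.183). A further set of predicted proteins on group 7 had lower values in purple grain. Its copies summed to 1.62 ± 0.548 FPKM in white and 0.514 ± 0.356 in purple grain with no overlap. The A copy, TraesCS7A02G250100, shares 3175 of its 5964 bases with a gene on the same strand that had 523 to 1134 counts per library, so its reads are uncertain. The tested B copy of that set, TraesCS7B02G141100, had 0.617, 0.720 and 0.982 FPKM against 0.396, 0.127 and 0.325 (log2 difference -1.34 ± 0.57 (SE), edgeR adjusted p = 0.189). The median log2 difference of the 8 tested DFR genes was -0.23, with 2 above 0.

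The ANS assignment joined genes of several descriptions, whose values did not all run in the same direction. In white grain, most of the ANS sum came from 3 copies on chromosome group 1 that are described as predicted proteins. In purple replicates 1 to 3 these copies held 20.1 of 46.9, 4.44 of 9.76 and 12.4 of 20.4 FPKM. The A copy, TraesCS1A02G070200 (1A, 53022367 to 53027095), had 13.5, 16.7 and 10.7 FPKM in white and 7.62, 2.05 and 7.43 in purple grain. All purple libraries lay below the white ones (log2 difference -1.15 ± 0.48 (SE), edgeR adjusted p = 0.186). The B copy, TraesCS1B02G088600 (1B, 85432023 to 85437171), had 5.61, 4.67 and 5.94 FPKM in white and 3.40, 0.603 and 0.994 in purple grain, again without overlap (log2 difference -1.63 ± 0.63 (SE), edgeR adjusted p = 0.164). Without purple replicate 1 it passed (edgeR adjusted p = 0.0401), with 0 members called higher and 1 lower of 27 in that fit, against 1.49% and 1.22% of all genes. With any other single library left out this copy did not pass (edgeR adjusted p = 0.227 to 0.337). The D copy, TraesCS1D02G072700 (1D, 53230872 to 53235602), had 8.69, 12.6 and 9.0 FPKM in white and 9.04, 1.78 and 3.96 in purple grain (log2 difference -0.93 ± 0.53 (SE), edgeR adjusted p = 0.306). The ranges overlapped through purple replicate 1. Together the 3 copies held 29.1 ± 4.37 FPKM in white and 12.3 ± 7.81 in purple grain, with no overlap.

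The genes described as anthocyanidin synthase were far less expressed and had higher values in purple grain. None reached the mean for testing, and they are named after their values were seen. Their sum was 0.761, 0.523 and 0.178 FPKM in white replicates 1 to 3 and 2.28, 1.69 and 2.66 FPKM in purple replicates 1 to 3, with no overlap. TraesCS6D02G004300 (6D, 2106676 to 2108293) had 8, 12 and 0 counts in white and 104, 153 and 121 in purple grain. TraesCS6A02G001500 (6A, 786731 to 788315) had 38, 7 and 0 counts in white and 142, 85 and 149 in purple grain. Both were higher in all purple libraries, purple replicate 3 included, and neither passed edgeR without the minimum. The log2 differences there were 4.16 (adjusted p = 0.0831) and 2.87 (adjusted p = 0.253). That fit called 2.29% of genes higher and none of the 65 members. The first of these p-values was the smallest among the 35 members below the mean for testing.

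The B copy at the same end of group 6, TraesCS6B02G006200, had 6, 2 and 0 counts in purple and 0 in white grain, too few for a fold. TraesCS6A02G041800, a further gene of this description on 6A, had 43, 41 and 20 counts in white and 108, 31 and 72 in purple grain, with overlap. The remaining tested genes carry the name SRG1, another member of the oxygenase family. TraesCS6D02G359300 (6D, 451783234 to 451784990) had 4.43, 2.70 and 1.62 FPKM in white and 24.0, 2.68 and 4.53 in purple grain. Its purple mean rested on replicate 1 (log2 difference 1.88 ± 0.86 (SE), edgeR adjusted p = 0.219). The median log2 difference of the 5 tested ANS genes was -0.93, with 2 above 0.

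Copies were then compared within sets, as the share of the A, B and D copy in their summed FPKM. Sets were formed from the chromosome group, the order along the chromosome and the description, not from sequence. Reads of homoeologues can be assigned to the wrong copy, and a share says nothing of the level. Of 36 shares in 12 sets, 10 shares in 7 sets did not overlap between the grain types, and 5 sets had no such share. The ANS set on group 6 had 0 FPKM in white replicate 3, so its shares were compared without that library. The shares of a set are parts of a whole, so a shift in the share of a copy also moves the others. Of the summed FPKM of the 12 sets, 3 did not overlap. They were the ANS sets on groups 1 and 6 and the DFR set with TraesCS7B02G141100. Such counts were not made for sets of other genes, so neither tally has a background to be read against. All 10 shares without overlap are given here. For CHI on group 5, the D share was 23.2%, 37.2% and 29.9% in white and 50.1%, 38.5% and 40.4% in purple grain. Every purple share exceeded every white one. For F3H on group 2, the B share was 54.3% ± 1.77 in white and 36.8% ± 6.12 in purple grain, without overlap. The A share of that set was 25.2% ± 4.60 and 36.5% ± 5.37, also without overlap, while the sums of the set overlapped.

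For the DFR set on group 7 described as dihydroflavonol-4-reductase, the A share was 39.3%, 38.6% and 48.7% in white and 19.7%, 17.4% and 31.0% in purple grain, without overlap, and the D share was 38.0% ± 9.39 and 57.3% ± 11.7 with overlap. For the DFR set on group 3, the A share was 5.08% ± 6.17 in white and 35.4% ± 12.5 in purple grain, and the B share 86.7% ± 6.30 and 57.2% ± 18.5, each without overlap. In the weakly expressed F3'H set described as flavonoid 3',5'-hydroxylase, the A share was 18.0% ± 1.01 and 37.2% ± 5.46, and the D share 59.4% ± 8.01 and 33.0% ± 3.28, each without overlap. The D share of the F3'H set with TraesCS7B02G169500 was 25.5% ± 8.71 in white and 9.66% ± 5.43 in purple grain, and the A share of the DFR set with TraesCS7B02G141100 was 37.4% ± 4.62 and 19.1% ± 16.6, both without overlap. In purple replicate 2 that DFR set had 18 counts, all in its B copy, so the A share there was 0%. Its A copy also shares 3175 bases with another gene. The ANS set on group 1 did not overlap in its sum, while its shares did. Its A share was 46.5% ± 4.16 in white and 48.1% ± 11.1 in purple grain. These shares were described and not tested.

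**Figure D4:**
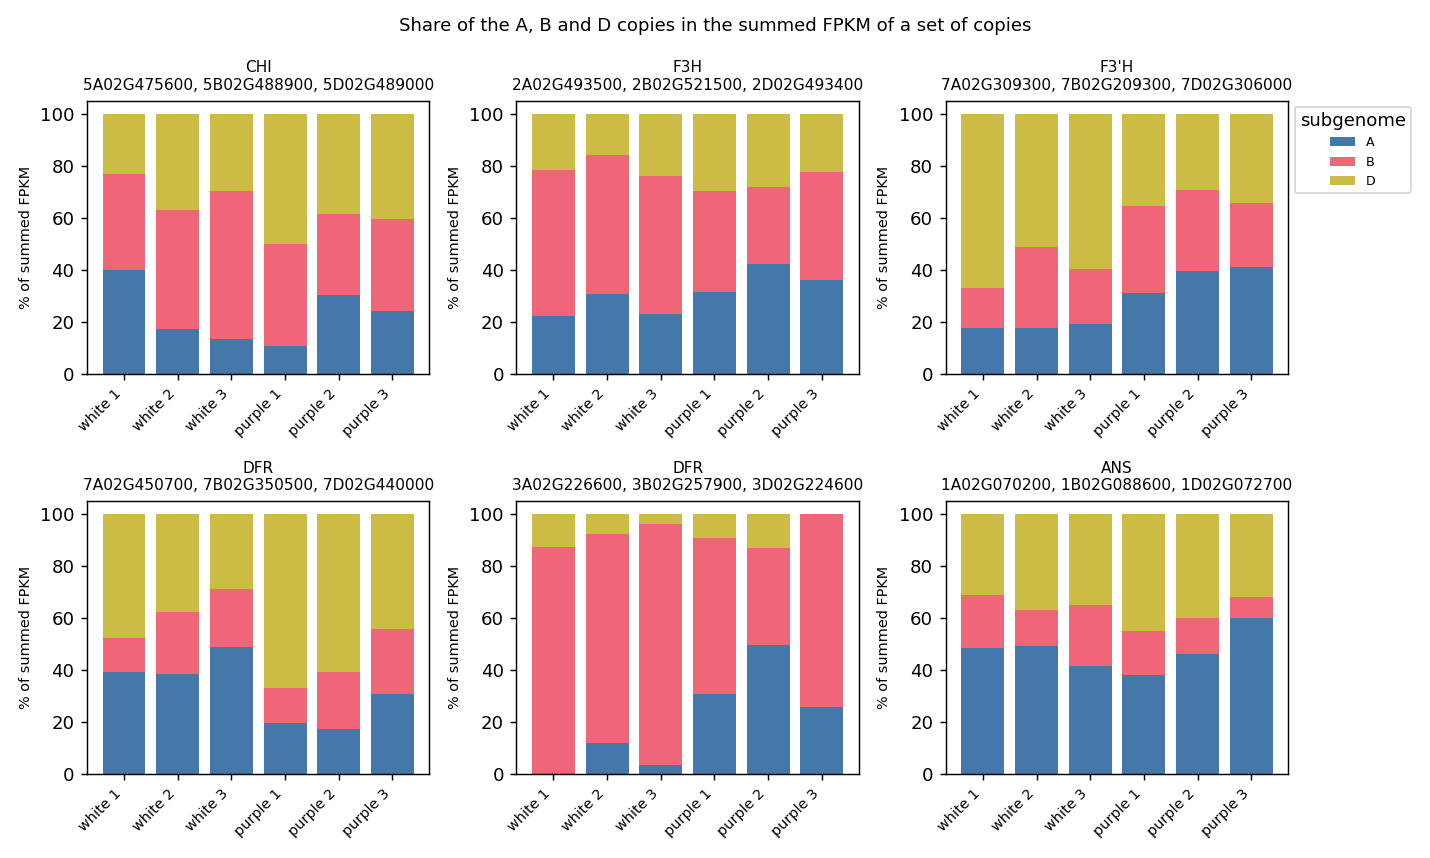
Share of the A, B and D copies in the summed FPKM of 6 sets of copies, in percent, for each of the 6 libraries. The A copy of the DFR set on group 7 holds 38.6% to 48.7% in white and 17.4% to 31.0% in purple grain.

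Some genes without counts are neighbours. On chromosome 2B, 4 consecutive genes within 295 kb (792388978 to 792683931) carry assignments to steps of flavonoid synthesis, though not to CHI or DFR. They are TraesCS2B02G613000, described as anthocyanidin synthase, TraesCS2B02G613100, described as chalcone synthase 2, TraesCS2B02G613200, assigned to F3'H, and TraesCS2B02G613300, described as flavanone 3-hydroxylase. All 4 had 0 counts in all 6 libraries. The group 6 genes described as flavonoid 3'-monooxygenase and 4 of those described as flavonoid 3',5'-hydroxylase 2 were likewise without counts in both grain types.

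Other steps of the pathway were taken by KO number from the same fit, where edgeR called 2.87% of all tested genes higher and 2.32% lower. Chalcone synthase, which makes the chalcone, had 3 of 6 tested genes called higher in purple grain and 0 lower. Its median log2 difference was 6.04 with genes without counts in a grain type set to their bound. Cinnamate 4-hydroxylase, which acts before the chalcone is made, had 1 of 12 called higher and 0 lower (median 2.19). Flavonol synthase, a branch that competes with DFR for dihydroflavonols, had 5 of 64 called higher and 1 lower (median 0.47). 4-coumarate-CoA ligase had 0 of 30 higher and 2 lower (median 0.24), and anthocyanidin reductase, which diverts anthocyanidins to proanthocyanidins, 0 of 22 higher and 1 lower (median 0.20). edgeR called 0 of 32 genes of phenylalanine ammonia-lyase, 0 of 13 of leucoanthocyanidin reductase and 0 of 2 of anthocyanidin 3-O-glucosyltransferase. Their medians were 0.88, 0.41 and 0.42, beside 0.02 for all tested genes.

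Looser and other tests gave more calls in several of these lists. At an unadjusted edgeR p under 0.05, where 14.2% of all tested genes were higher and 12.6% lower, purple grain was higher for 7 and lower for 0 cinnamate 4-hydroxylase genes. The numbers higher and lower were 4 and 1 for chalcone synthase, 17 and 5 for flavonol synthase, 4 and 2 for 4-coumarate-CoA ligase, and 0 and 2 for anthocyanidin reductase. They were 1 and 1 for phenylalanine ammonia-lyase, 3 and 2 for leucoanthocyanidin reductase, and 1 and 0 for anthocyanidin 3-O-glucosyltransferase. DESeq2, which called 9.41% and 6.2% of all tested genes, called 5 and 0 for cinnamate 4-hydroxylase, 4 and 0 for chalcone synthase, 18 and 4 for flavonol synthase, and 2 and 2 for 4-coumarate-CoA ligase. Its calls were 0 and 1 for anthocyanidin reductase, 2 and 1 for phenylalanine ammonia-lyase, 2 and 2 for leucoanthocyanidin reductase, and 1 and 0 for anthocyanidin 3-O-glucosyltransferase.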

How the data were processed

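Per the file headers, the authors deposited read counts and FPKM values per gene for each library. Counts were whole numbers, and an FPKM of 0.0001, written wherever the count was 0, was read as 0. Tools named in the submitters' processing notes are cutadapt, HISAT2 and StringTie; versions, strand setting, genome build and annotation are not given in the sources used here. Gene positions, descriptions and KO numbers are those of the table. A further 12 columns, from 6 libraries that match no labelled sample, were not used. No 2 libraries agreed within counting noise, and each counted as 1 replicate.

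edgeR 4.0.16 (R 4.3.3; TMM scaling, quasi-likelihood test, Benjamini-Hochberg adjustment over all tested genes) was fitted to the counts of the 48492 genes whose mean reached 0.5 FPKM. The SE was the log2 difference divided by the square root of F. The common biological coefficient of variation was 0.488. Folds against 0 counts used a floor of 3 counts per library and cover counting error only. DESeq2 1.42.0, limma 3.58.1 on log2(FPKM + 1) or log2(FPKM + 0.1), other scalings and filters, an adjusted p under 0.1, a replicate block and leaving out each library were alternatives. Dropping purple replicate 3 together with the filter was added after seeing the data. The fitting step was run on simulated counts with known changes before use.

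Named genes were, per enzyme, the 4 with the highest mean, those with an unadjusted edgeR p under 0.05, those with 0 counts in a grain type and at least 30 in the other, and tested genes of the same KO and chromosome group. Some of the last kind are given by counts only. The members and lists were chosen with earlier results of these data known.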

Additional observations from a re-analysis of the deposited data

How the results depend on the processing

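The counts of called genes depended on the model and on single libraries. With edgeR, 0 members were called higher and 0 lower, against 4 and 1 by DESeq2, 1 and 1 at an adjusted p under 0.1, 0 to 2 and 0 to 2 when 1 library was left out, and 2 and 2 with no filter and without purple replicate 3. Of all genes, 1391 were higher and 1127 lower, against 4561 and 3008 by DESeq2, 3311 and 2263 at an adjusted p under 0.1, 229 to 2515 and 355 to 2417 when 1 library was left out, 2732 and 2592 with no filter and without purple replicate 3, and 2008 lower by limma on log2(FPKM + 0.1). The count was lowest without purple replicate 2 and highest without purple replicate 3. With a replicate block, 0 members and 1551 higher and 996 lower genes were called. Same-numbered libraries correlated at 0.12, 0.00036 and 0.23 in their deviations, so the numbers were not taken as pairs. With scaling to total counts, the median over all tested genes was -0.11 in place of 0.02. The log2 ratio of summed F3H ran from -0.67 to 0.25 when 1 library was left out. The F3'H share differences, in percentage points, became -0.52 (A), 0.52 (B) and 0 (D) with members of at least 0.5 FPKM alone, since no D copy then remained. Of the log2 differences of 29 named genes under the alternatives, 437 kept direction and side of the threshold, 14 gained a call and 24 turned sign. The ranges without single libraries of those that turned were -0.86 to 0.067 for TraesCS3A02G226500, -0.72 to 0.069 for TraesCS3B02G257900, -0.57 to 0.28 for TraesCS3D02G224500, -0.56 to 0.39 for TraesCS7B02G350500, -0.058 to 0.63 for TraesCS7D02G440000, -0.74 to 0.28 for TraesCS1B02G476400, -0.19 to 0.70 for TraesCS2A02G493500, -0.52 to 0.63 for TraesCS2D02G392900 and -0.55 to 0.73 for TraesCS2D02G493400. TraesCS2D02G493400 was at -0.015 by limma on log2(FPKM + 0.1). TraesCS2D02G392900 was at -0.0011 with total counts, -0.017 with no filter, -0.0074 and -0.12 by limma on log2(FPKM + 1) and log2(FPKM + 0.1), -0.96 with the replicate block and -2.43 with no filter and without purple replicate 3. The cause was not tested. Members with counts but under 0.5 FPKM were left out of the main test by that minimum. They held 4 to 527 counts over the 6 libraries, and depth limits those with few counts.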
